A study of Homo sapiens with 21 samples.

Results

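The comparison sets 3 libraries of wild type cells treated with ironomycin for 24 h against 3 libraries of wild type cells treated for 6 h, which are 6 of the 21 samples of the series. MV4-11 is an established human cell line from a leukaemia that carries both B-lymphoid and myeloid traits, and ironomycin, labelled AM5, is a small molecule derived from salinomycin. The other groups used here, of 3 libraries each, were wild type cells in the solvent DMSO, which give the starting level, and cells with a CRISPR knockout labelled HK2 (the symbol of hexokinase 2) or PGP (the symbol of phosphoglycolate phosphatase), each in DMSO and after 24 h of ironomycin. The labels give no time for DMSO and no DMSO sample paired with either time, so time in culture and time in ironomycin cannot be told apart. Whether replicates are separate cultures is not labelled, and the p-values cover the spread between these libraries, which may be technical.

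All genes that passed a filter on low counts were compared, and each was then classed by how it moved from DMSO to 6 h and from 6 h to 24 h. Of 11610 genes tested, 984 were higher at 24 h than at 6 h (8.48% of those tested) and 938 were lower (8.08%), together 16.6%. Most interferon-stimulated genes and most genes of sterol and fatty acid synthesis rose after 6 h, genes of mitosis fell after 6 h, and 9 of 27 transcripts of the endoplasmic reticulum unfolded protein response fell by 6 h and then returned. Most genes of the integrated stress response, in contrast, stood high at both times. Of 40 tested, 29 were not called between the times and 9 were lower at 24 h, a larger share than the 8.08% of all genes.

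Reads were counted at transcript ends with a 3′ kit. The 9 wild type libraries held between 4681898 and 6069264 counts. Levels are CPM, counts per 1000000 of a library's counts after scaling by trimmed-mean size factors, and 3 counts in a library equal 0.494 to 0.641 CPM. Changes are log2 ± SE (n = 3 libraries per group), and a gene was called at an adjusted p under 0.05 in edgeR's quasi-likelihood test over all genes tested. The median log2 change of all genes from 6 h to 24 h was 0.013. The 6 h and 24 h libraries did not overlap in 3574 of all genes tested (30.8%) and in 1845 of the 1922 called genes.

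One library stood apart. The second replicate at 6 h deviated from its group by an SD of 0.66 on the log2 scale, against 0.341 to 0.469 in the other 8 wild type libraries. Without it, 836 genes were higher and 764 lower at 24 h, and 1321 of the 1922 called genes were called again in the same direction, with 0 in the opposite direction. Values without this library are given beside some of the results it touches, and other changes moved too. Without it the log2 change from 6 h to 24 h was 0.92 for CAMKK1 (1.36 with it). It was -0.84 for MCM5 (-1.11 with it) and 1.41 for CTSD (1.10 with it), all still called. The cells carried the markers of the line: CD33, FLT3, HOXA9, MEIS1 and CD4 were present in all 9 libraries, whereas CD14 had 2 counts in all and VPREB1 had 0. Of 23 markers of T, erythroid, megakaryocyte, fibroblast, epithelial and endothelial cells, 12 were at 0 in all 9 libraries. Their summed level was 5.97 to 7.72 CPM in DMSO, 8.54 to 13.3 at 6 h and 10.5 to 13.0 at 24 h, of which KRT8 made up 4.15 to 11.1, while EPCAM, KRT18 and CDH1 were at 0.

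Several regulatory circuits with known timing bear on these genes. Type I interferon signalling drives interferon-stimulated genes through the transcription factor complex ISGF3, which binds a promoter element called the ISRE. SREBP transcription factors switch on cholesterol and fatty acid synthesis when sterols in the endoplasmic reticulum run low. The integrated stress response works through the factor ATF4, the unfolded protein response through ATF6, XBP1 and PERK, and heat shock genes through HSF1. Genes of mitosis are held down in resting cells by the DREAM complex, which binds the cell cycle homology region (CHR) of their promoters. Mitochondrial DNA is copied from both strands into long RNAs that are cut into rRNAs, tRNAs and mRNAs.

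Promoter windows are shown first for some members of the interferon, mitotic, heat shock and stress response lists. They are examples with a motif match and are not ranked by size of change. In 2 of the late-moving groups most promoters carried a short motif. Windows are from RefSeq on GRCh38.p14, written 5′ to 3′ in the direction of the gene, all before the annotated start, with the motif in capitals. Each window ran from 250 bases before to 50 bases after a start for the shares, and both strands were searched. The ISRE core (GAAA, any 2 bases, GAAA) is shown for 4 interferon-stimulated genes that rose after 6 h.
ISG15, chr1:1013370-1013419, plus strand: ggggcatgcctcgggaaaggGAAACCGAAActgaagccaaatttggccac
IFI6, chr1:27672278-27672327, minus strand: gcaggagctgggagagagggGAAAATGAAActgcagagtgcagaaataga
DDX60, chr4:168318776-168318825, minus strand: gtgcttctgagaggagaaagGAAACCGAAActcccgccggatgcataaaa
EPSTI1, chr13:42992262-42992311, minus strand: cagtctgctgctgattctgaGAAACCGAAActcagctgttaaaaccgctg
The CHR (TTTGAA or its complement on the other strand) is shown for 4 mitotic genes that fell after 6 h.
PLK1, chr16:23678840-23678885, plus strand: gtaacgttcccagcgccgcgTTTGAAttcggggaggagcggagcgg
CDC25C, chr5:138331809-138331854, minus strand: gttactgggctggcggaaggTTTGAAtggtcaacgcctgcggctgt
CCNB2, chr15:59105097-59105142, plus strand: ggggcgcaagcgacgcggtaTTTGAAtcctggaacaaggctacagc
CDCA8, chr1:37692473-37692515, plus strand: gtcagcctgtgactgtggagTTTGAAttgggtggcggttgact
The heat shock element (GAA, any 2 bases, TTC, any 2 bases, GAA) is shown for HSPA8, which fell by 6 h and partly came back. The ATF4 and C/EBP composite element (TGATG, any base, AA) is shown for ATF3 and CHAC1, stress response genes that rose by 6 h and held.
HSPA8, chr11:123062159-123062211, minus strand: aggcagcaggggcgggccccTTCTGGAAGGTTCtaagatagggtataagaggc
ATF3, chr1:212565196-212565243, plus strand: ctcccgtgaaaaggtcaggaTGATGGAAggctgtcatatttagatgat
CHAC1, chr15:40953242-40953289, plus strand: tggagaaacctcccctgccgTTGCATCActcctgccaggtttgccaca

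Of the 51 interferon-stimulated genes listed, 40 had a window in the table, and an ISRE core was in 27 of them (67.5%, 95% Wilson interval 52.02 to 79.9%), and in 4.38% of all 27305 genes with a window. The CHR was in 27 of 37 mitotic genes with a window, of 44 listed (73.0%, 57.0 to 84.6%) against 18.2% of all, and in 54.1% of them when only the 250 bases before the start were read. The heat shock element was in 7 of 29 heat shock genes, of 33 listed (24.1%), against 0.608%, and the ATF4 composite element in 9 of 34 stress response genes, of 43 listed (26.5%), against 4.46%. The sterol regulatory element (TCAC, any base, CCAC) was in 1 of 21 cholesterol genes, of 28 listed, against 1.39%. These are letter matches in the reference and were not tested as binding sites.

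Every gene was then placed by its 2 steps, DMSO to 6 h and 6 h to 24 h, and by the net change from DMSO to 24 h. These contrasts share libraries, so the classes are a description with no test of their own. At 6 h, 1271 genes were higher than in DMSO (10.9%) and 1285 lower (11.1%). At 24 h, 1775 genes were higher than in DMSO (15.3%) and 1690 lower (14.6%). Of the 1271 early risers, 70 kept rising (5.51%), 654 held (51.5%, second step not called, still higher than DMSO at 24 h), 210 returned (16.5%) and 337 had neither the second step nor the 24 h level called. Of the 1285 early fallers, 71 kept falling (5.53%), 631 held (49.1%), 248 returned (19.3%) and 335 had neither called.

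Returns were mostly complete by the test of 24 h against DMSO. Among the 210 genes that rose and came down, 162 were no longer called at 24 h, 38 were still higher than DMSO and 10 ended lower than DMSO. Among the 248 that fell and came up, 208 were no longer called, 26 were still lower and 14 ended higher. A further 468 genes were called as rising only after 6 h (late rise) and 479 as falling only after 6 h (late fall). Late movers were thus the largest of the called second-step classes. Their first step was not called, which does not show that it was absent. IFIT1, a late riser, had a first step of 3.65 ± 1.36 (adjusted p = 0.057).

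**Figure D1:**
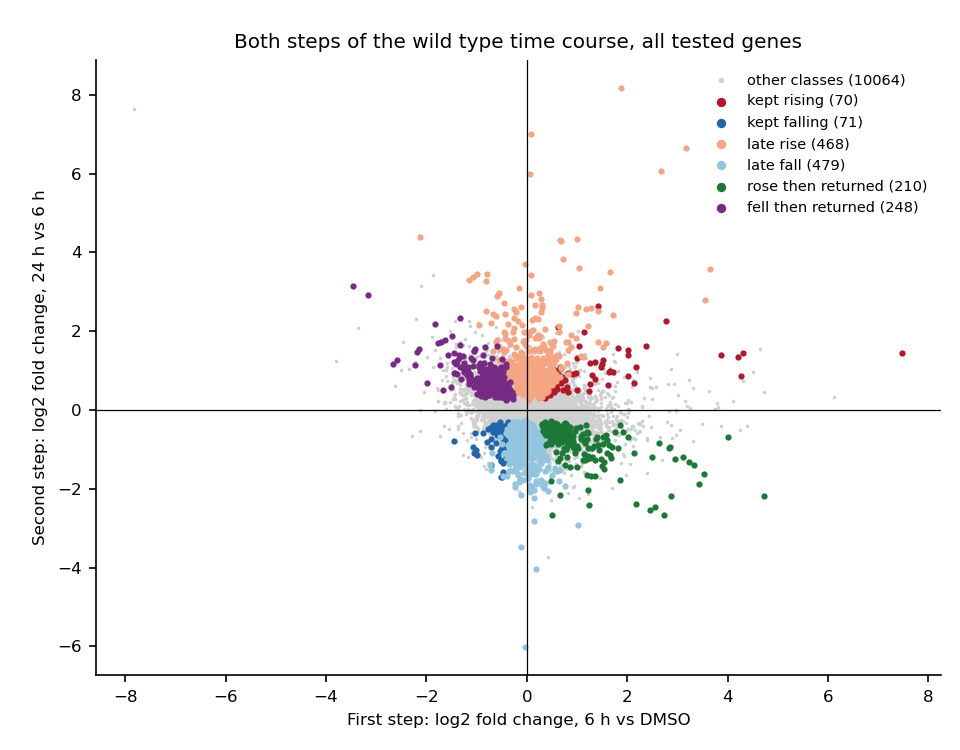
Each point is a tested gene, with the log2 change from DMSO to 6 h on the x axis and from 6 h to 24 h on the y axis, coloured by class. The late classes (468 and 479 genes) lie along the vertical axis, the 70 genes that kept rising and 71 that kept falling lie in the upper right and lower left, and the returning genes (210 and 248) lie in the lower right and upper left. Both axes use the 6 h libraries, so the slant of the cloud is partly built in.

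The class sizes depend on single libraries. Without the second 6 h replicate, 58 genes kept rising, 55 kept falling, 480 rose late, 478 fell late, 103 rose and fully returned, 5 rose and reversed, 151 fell and fully returned, 31 fell and partly returned and 14 fell and reversed. Without the third 24 h replicate, 46 kept rising, 128 fell and fully returned, 23 rose and partly returned and 7 fell and partly returned. Without the third 6 h replicate, 44 kept falling and 24 rose and reversed. The other omissions that moved a class by over 1.5 times are in the ranges of the closing section.

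The knockout libraries measured the 24 h state a second time, with no 6 h libraries. In HK2 knockout cells 1847 genes were higher at 24 h than in DMSO (15.9%) and 1571 lower (13.5%); in PGP knockout cells 1869 were higher (16.1%) and 1792 lower (15.4%). Each of the 70 genes that kept rising in wild type was called higher in both knockouts, and each of the 71 that kept falling was called lower in both. Of the 468 late risers, 390 were called higher in HK2 and 409 in PGP knockout cells, and of the 479 late fallers, 381 and 411 were called lower. Of the 162 genes that rose and fully returned in wild type, 141 and 147 were not called at 24 h in the knockouts, and of the 208 that fell and fully returned, 185 and 184 were not called.

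Most interferon-stimulated genes rose after 6 h. Of 47 tested, 37 rose between 6 h and 24 h and 0 fell, with a median log2 change of 1.46, and all 47 point estimates were above 0. Only 7 of the 47 had been called by 6 h. IFI6 (ENSG00000126709), a mitochondrial and endoplasmic reticulum protein that restrains cell death and virus growth, stood at 23.2, 19.2 and 25.7 CPM in DMSO, 16.4, 27.3 and 23.2 at 6 h and 463, 192 and 214 at 24 h. The 6 h libraries lay across the DMSO range and all 24 h libraries were far above it (log2 change 3.70 ± 0.42, adjusted p = 1.3e-06). ISG15 (ENSG00000187608), a ubiquitin-like modifier, read 10.5, 8.08 and 8.06 CPM at 6 h and 132, 45.2 and 48.8 at 24 h (3.09 ± 0.42). OAS1, which makes the 2-5A signal that activates RNase L, went from 1.28, 0.437 and 1.31 CPM at 6 h to 29.4, 15.1 and 18.1 at 24 h (4.31 ± 0.56), and its relative OAS2 from 3.63, 2.62 and 0.750 CPM at 6 h to 76.4, 29.4 and 29.7 at 24 h (4.29 ± 0.56). In each of these 4 genes the first 24 h replicate was the highest library.

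The helicase-like DDX60 read 2.13, 3.49 and 2.44 CPM at 6 h and 48.9, 18.2 and 23.9 at 24 h (3.49 ± 0.54), and the antiviral factor SAMD9L 1.49, 0.655 and 2.81 CPM at 6 h and 36.4, 15.9 and 20.8 at 24 h (3.82 ± 0.55). IFIT1, which binds foreign RNA ends, went from 1.92, 0.655 and 0.750 CPM at 6 h to 14.2, 14.9 and 11.3 at 24 h (3.58 ± 0.58). In DMSO IFIT1 read 0, 0 and 0.166 CPM, and its first step was of like size but not called (3.65 ± 1.36, adjusted p = 0.057). Other members were all but absent at 6 h, so only count ratios are given. IFI44L had 1 count at 6 h and 405 at 24 h (ratio 392.8, 95% counting interval 70.1 to 15553), EPSTI1 1 and 181 (175.6, 31.1 to 6972), IFI27 3 and 342 (110.6, 37.5 to 538.8), and SIGLEC1, a sialic acid receptor of macrophages, 2 and 163 (79.0, 21.5 to 658.3). IFIT2 had its rise called by 6 h (4.51 ± 0.72) and its second step not called (0.96 ± 0.42, adjusted p = 0.12). It read 0.209, 0.417 and 0.498 CPM in DMSO, 18.8, 5.02 and 4.31 at 6 h and 20.5, 17.9 and 15.9 at 24 h. Its first 6 h replicate lay far above the other 2, and without that library the second step was called (1.93, adjusted p = 0.0024), as it was with no filter on low counts (adjusted p = 0.0038). Without the third 6 h replicate it was 0.58 (adjusted p = 0.35).

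The size of the interferon rise depended on the first 24 h replicate. Without it, 27 of the 47 members were called and the changes were 2.39 for ISG15 and 3.67 for OAS2, both still called. The change was 4.18 for IFIT1 without the first 6 h replicate and 4.44 for SAMD9L without the third. Without the second 6 h replicate, 35 members rose. In the knockouts at 24 h against their own DMSO, 37 of the 47 members were higher in HK2 and 41 in PGP knockout cells, with 0 lower in either.

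Most genes of sterol synthesis also rose after 6 h. Of 26 tested genes of cholesterol synthesis and uptake, 22 rose and 0 fell between 6 h and 24 h, with a median log2 change of 1.88, where 2 had been called higher and 1 lower by 6 h. HMGCS1 (ENSG00000112972), which makes HMG-CoA at the entry to the pathway, read 5.64, 8.14 and 7.80 CPM in DMSO, 3.20, 4.58 and 4.69 at 6 h and 39.6, 56.7 and 41.8 at 24 h. All 6 h libraries were below all DMSO libraries and all 24 h libraries were above both. The first step was not called (adjusted p = 0.06) and the second was a change of 3.46 ± 0.26 from 6 h (adjusted p = 4.4e-09). The sterol demethylase MSMO1 went from 12.2, 10.7 and 16.1 CPM at 6 h to 79.5, 121 and 104 at 24 h (2.96 ± 0.19). SQLE, squalene epoxidase, went from 51.4, 71.8 and 64.9 CPM at 6 h to 283, 335 and 296 at 24 h (2.28 ± 0.16), and FDFT1, squalene synthase, from 178, 195 and 198 CPM at 6 h to 499.8, 615 and 564 at 24 h (1.55 ± 0.12). For each of the 3 the 6 h and DMSO ranges lay close together and the 24 h libraries stood clear of both.

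Fatty acid synthesis followed, with 10 of 14 tested genes higher and 1 lower at 24 h than at 6 h (median 1.12; 0 lower without the second 24 h replicate). PNPLA3, a lipid droplet acylhydrolase, went from 4.27, 3.06 and 5.06 CPM to 25.5, 27.6 and 26.8 (2.67 ± 0.23), and the desaturase FADS2 from 51.7, 33.8 and 52.5 CPM at 6 h to 109.7, 122 and 111 at 24 h (1.31 ± 0.13). FASN, fatty acid synthase, dipped and overshot: it read 316, 287 and 278 CPM in DMSO, 218, 257 and 185 at 6 h and 441, 492 and 462 at 24 h (1.08 ± 0.12). The 6 h libraries were the lowest 3 of the 9 and the 24 h libraries the highest. At 24 h against DMSO, 19 of the 26 cholesterol genes were higher in HK2 and 20 in PGP knockout cells (1 lower), and 11 of the 14 fatty acid genes were higher in both.

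**Figure D2:**
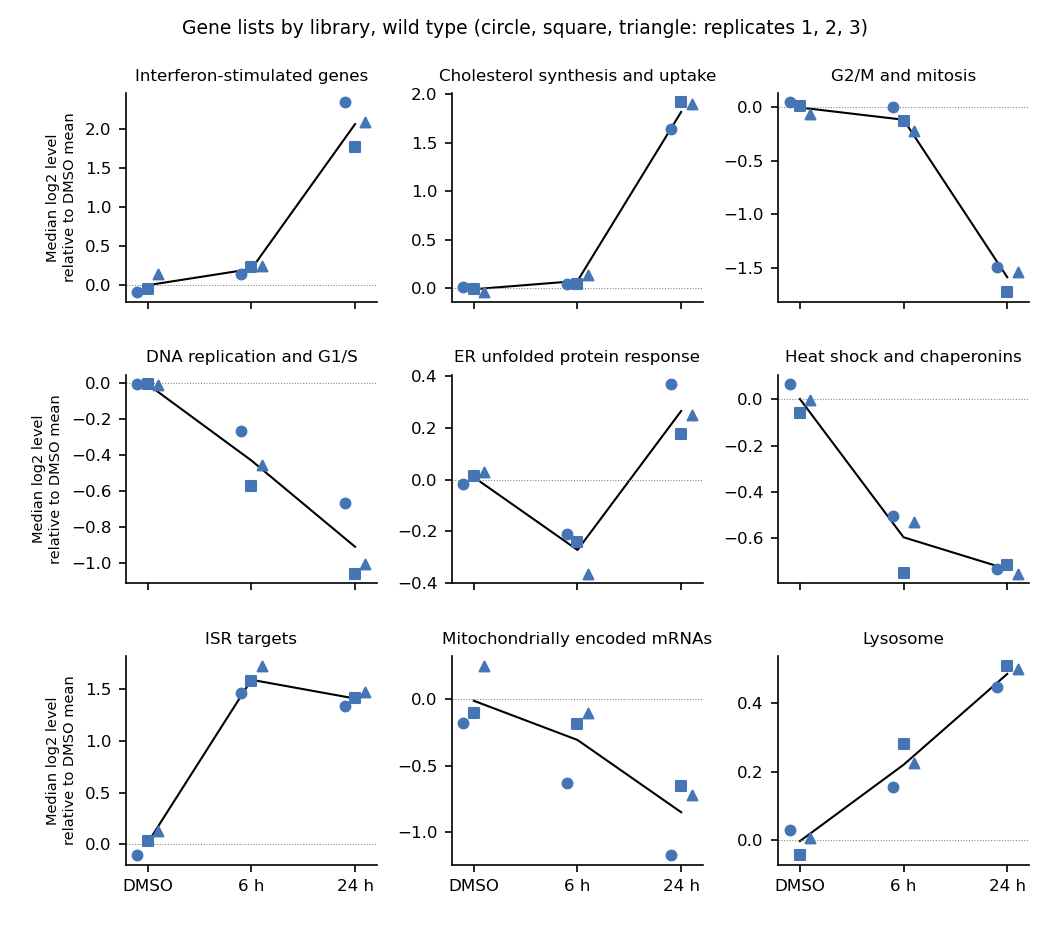
Each panel plots a gene list: the y axis is the median over its tested members of the log2 level (CPM plus 0.5) relative to the DMSO mean, and the x axis the condition, with 1 symbol per library and a line through the group means. Interferon and cholesterol genes sat near 0 at 6 h (0.15 to 0.25 and 0.04 to 0.14) and at 1.77 to 2.34 and 1.64 to 1.91 at 24 h, whereas stress response genes were already at 1.47 to 1.73 at 6 h.

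Genes of G2 and mitosis fell after 6 h without exception among those tested. All 43 were lower at 24 h than at 6 h, with a median log2 change of -1.55, while at 6 h 9 were lower and 1 higher than DMSO. PLK1 (ENSG00000166851), a kinase that drives entry into mitosis, read 43.9, 42.4 and 40.1 CPM in DMSO, 40.1, 56.3 and 43.7 at 6 h and 9.24, 10.9 and 9.53 at 24 h, so that the 24 h libraries lay below all others (-2.23 ± 0.19, adjusted p = 1.6e-08). CDC20, an activator of the anaphase-promoting complex, went from 147, 124 and 98.2 CPM at 6 h to 31.2, 23.6 and 28.6 at 24 h (-2.15 ± 0.23). The cyclin CCNB2 went from 141, 118 and 135 CPM at 6 h to 43.1, 48.6 and 42.2 at 24 h (-1.56 ± 0.12). The kinetochore motor CENPE went from 229.9, 217 and 187 CPM at 6 h to 58.8, 52.6 and 58.5 at 24 h (-1.90 ± 0.14).

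The other large falls in this group had the same form. The spindle factors TPX2 (-1.91 ± 0.14), DLGAP5 (-1.96 ± 0.16) and DEPDC1 (-2.004 ± 0.16), the centrosome kinase NEK2 (-2.05 ± 0.22) and the chromosomal passenger subunit CDCA8 (-1.60 ± 0.12) were each lower in all 3 libraries at 24 h than in any at 6 h. For genes named among the largest falls, such as DLGAP5 and DEPDC1, that separation was part of the naming rule. Without the second 6 h replicate 42 of the 43 genes were called, and at least 42 were called on leaving out any other wild type library. All 43 were lower at 24 h than in DMSO in HK2 and in PGP knockout cells.

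DNA replication genes declined in a different order, with part of the fall already present at 6 h. Of 47 tested, 23 were lower at 6 h than in DMSO and 22 were lower at 24 h than at 6 h (2 higher), with medians of -0.39 and -0.50. Of them 9 kept falling, 11 fell late and 12 fell by 6 h and held. RRM1, the large subunit of ribonucleotide reductase, fell at both steps: 514, 482 and 443 CPM in DMSO, 413, 350.3 and 349 at 6 h and 249.6, 206 and 188 at 24 h (-0.37 ± 0.12 and then -0.79 ± 0.12). TYMS, thymidylate synthase, did the same at 180.0, 169 and 208 CPM in DMSO, 132, 68.3 and 121 at 6 h and 63.5, 52.4 and 66.9 at 24 h (-0.79 ± 0.20 and -0.82 ± 0.20). The helicase subunits MCM7 (-1.13 ± 0.11) and MCM5 (-1.11 ± 0.17) and thymidine kinase TK1 (-1.11 ± 0.14) were late fallers, with 6 h levels of 54.4, 53.9 and 58.1 CPM for TK1 against 29.2, 22.8 and 25.3 at 24 h. The number of lower genes was 14 without the third 24 h replicate. No gene of the list was called higher without the second 6 h replicate or without the first 24 h replicate, and 1 was without the second 24 h or the third 6 h replicate.

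Among called genes at a mean of at least 5 CPM whose 6 h and 24 h libraries did not overlap, IGLL1 (ENSG00000128322) fell most. It encodes part of the surrogate light chain of B-cell precursors and marks the lymphoid side of the line. It read 25.5, 52.2 and 28.5 CPM in DMSO, 28.8, 40.2 and 28.3 at 6 h and 3.49, 2.78 and 2.33 at 24 h (-3.49 ± 0.37, adjusted p = 5.5e-07), with the 6 h range inside the DMSO range and the 24 h libraries far below both. MPO, myeloperoxidase of the myeloid side, was also lower at 24 h, at 10.9, 14.2 and 9.94 CPM at 6 h and 4.11, 8.13 and 4.28 at 24 h (-1.07 ± 0.26). CD4 was called higher (0.47 ± 0.11), but not without the second 24 h replicate (0.36, adjusted p = 0.051). In a bulk library fewer cells of a kind and less RNA per cell cannot be told apart. Of 13 tested targets of the KMT2A fusion, 0 were called by edgeR (2 higher and 1 lower at an unadjusted p under 0.05, 1 higher with DESeq2), with MYB at -0.14 ± 0.10 and CDK6 at -0.20 ± 0.13; 1 was higher without the first or the third 6 h replicate.

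**Figure D3:**
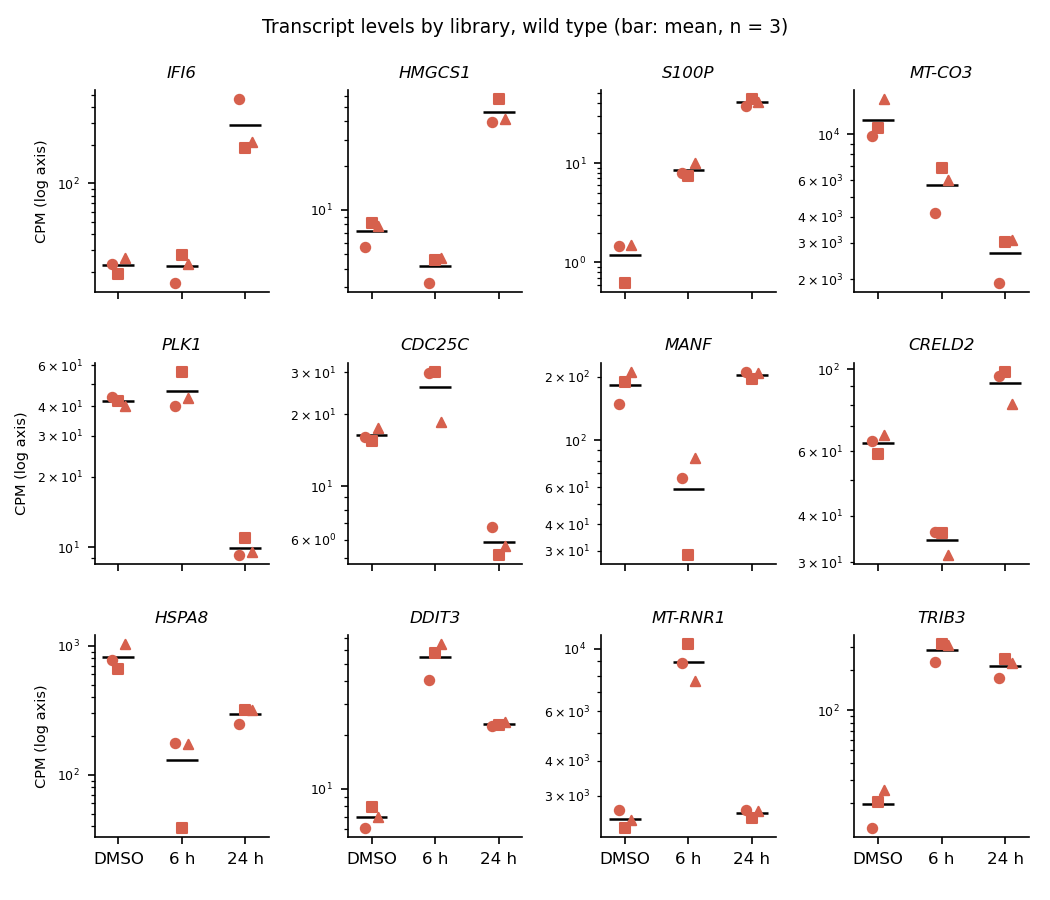
CPM on log axes for 12 genes in the 9 wild type libraries (1 symbol per library, bar at the mean of 3). IFI6 and HMGCS1 rose after 6 h, S100P rose and MT-CO3 fell at both steps, PLK1 fell after 6 h, CDC25C rose and then fell below DMSO, MANF and CRELD2 fell and came back, HSPA8 came back in part, DDIT3 came down in part, MT-RNR1 fully, and TRIB3 held.

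Genes that kept rising included S100P (ENSG00000163993), a calcium-binding protein, whose smaller step was the largest of that class at a mean of at least 5 CPM. It read 1.46, 0.626 and 1.49 CPM in DMSO, 7.90, 7.42 and 9.94 at 6 h and 37.8, 43.8 and 40.6 at 24 h, with no overlap between any groups (2.77 ± 0.42 and then 2.27 ± 0.27, adjusted p = 3.4e-06 for the second step). KCNE1, a potassium channel subunit, read 0.209, 1.25 and 3.32 CPM in DMSO, 6.19, 10.3 and 10.1 at 6 h and 22.6, 32.9 and 26.6 at 24 h (1.62 ± 0.34 in the second step). HES1, a repressor downstream of Notch, read 4.06, 2.18 and 8.44 at 6 h and 13.97, 13.9 and 17.1 at 24 h (1.59 ± 0.37; 2.23 without the third 6 h replicate). KLHDC7B had 0 counts in DMSO, 3.63, 6.98 and 3.19 CPM at 6 h and 13.97, 12.7 and 10.7 at 24 h, at least 64.6-fold higher at 24 h than a floor of 3 counts over the DMSO group, with a second step of 1.44 ± 0.27. DLX2, a homeobox factor, had a second step of 1.52 ± 0.38, not called without the third 24 h replicate (adjusted p = 0.079). CXCL10, an interferon-induced chemokine, had a second step of 1.45 ± 0.49 (adjusted p = 0.043) that was lost with DESeq2 (adjusted p = 0.13), in the wild type libraries alone (adjusted p = 0.073) and without any 1 of 6 libraries, the highest adjusted p being 0.17 without the first 6 h replicate.

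Lysosomal genes were the list with the most members that kept rising, 7 of 34 tested, and 12 rose and 1 fell between 6 h and 24 h (median 0.36). The protease CTSD read 104, 121 and 112 CPM in DMSO, 139, 247 and 145 at 6 h and 383, 379.7 and 372 at 24 h (1.10 ± 0.15). The sialidase NEU1 went from 33.3, 33.2 and 40.9 CPM at 6 h to 65.3, 80.7 and 69.4 at 24 h (1.002 ± 0.14), the ceramidase ASAH1 from 87.3, 83.2 and 83.99 CPM at 6 h to 144, 145 and 143 at 24 h (0.76 ± 0.11), and PSAP, the saposin precursor, from 126, 206 and 175 CPM at 6 h to 262, 332 and 319 at 24 h (0.85 ± 0.15). All 4 were highest in the 24 h libraries; CTSD, NEU1 and ASAH1 were lowest in DMSO, whereas the DMSO and 6 h libraries of PSAP overlapped. The 34 tested autophagy genes differed from this: 15 rose by 6 h, and in the second step 3 rose and 3 fell. These shares were close to the 8.48% and 8.08% of all genes tested. The fallers numbered 0 without the second 6 h replicate and 5 without the second 24 h replicate.

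Of the 13 mitochondrially encoded mRNAs, 3 kept falling (MT-CO3, MT-ATP6 and MT-CO2) and the others took other courses. MT-CO3 (ENSG00000198938), a subunit of cytochrome c oxidase, read 9762, 10713 and 14758 CPM in DMSO, 4169, 6901 and 5997 at 6 h and 1921, 3028 and 3089 at 24 h, without overlap of any groups (-1.05 ± 0.21 and -1.09 ± 0.21). MT-ATP6, of ATP synthase, read 2607, 4711 and 3391 at 6 h and 1259, 1997 and 1999 at 24 h (-1.03 ± 0.21). MT-CO2 had a second step of -0.78 ± 0.24 that was lost in the wild type libraries alone (adjusted p = 0.065) and without the first 24 h, the second 6 h or the third 6 h replicate (adjusted p = 0.13, 0.064 and 0.077). MT-ND3 and MT-ATP8 fell by 6 h (-0.41 ± 0.20 and -0.57 ± 0.25 in the second step, neither called; MT-ND3 was called lower without the first 6 h replicate, adjusted p = 0.019, and with no filter on low counts, adjusted p = 0.0077). In the wild type libraries alone MT-ATP8 was called lower in the second step (adjusted p = 0.011), and its 6 h libraries (412, 516 and 486 CPM) lay above its 24 h libraries (316, 286 and 349 CPM). Outside the mitochondrion TUBB4B, a tubulin, fell at both steps (-1.07 ± 0.16 and -0.94 ± 0.18), as did S100A8, a calcium-binding protein of myeloid cells (-0.99 ± 0.30 and -1.15 ± 0.35), whose second step was not called without the third 24 h or the first 6 h replicate (adjusted p = 0.11 and 0.16).

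Other mitochondrial transcripts rose by 6 h and came down. MT-CO1 read 869, 913 and 1142 CPM in DMSO, 1814, 2659 and 2513 at 6 h and 859, 1099 and 1029 at 24 h (-1.23 ± 0.14), a full return. MT-ND5 (1.53 ± 0.15 and then -0.86 ± 0.14) and MT-ND6 (1.68 ± 0.14 and then -1.22 ± 0.14), the latter coded on the strand opposite to the rest, returned in part. The 12S rRNA MT-RNR1 (ENSG00000211459) returned fully: 2684, 2312 and 2462 CPM in DMSO, 8904, 10351 and 7639 at 6 h and 2676, 2507 and 2653 at 24 h, where 24 h against DMSO gave 0.07 ± 0.12 (adjusted p = 0.7). The 16S rRNA MT-RNR2 was not called in either step (-0.08 ± 0.18 in the second). Over the list of 13 mRNAs, 9 were lower at 24 h than at 6 h and 0 higher (median -0.85), with 7 lower without the second 6 h replicate.

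Counts of the tRNA genes beside the rRNA genes swung widely. MT-TL1, which follows the 16S gene, read 97.9, 98.9 and 74.1 CPM in DMSO, 2086, 3560.0 and 1479 at 6 h and 524, 514 and 536 at 24 h (4.72 ± 0.25 and then -2.18 ± 0.22), so that the 24 h libraries were still far above DMSO. The second 6 h replicate was the highest library for MT-TL1, and without it the second step was -1.76. MT-TF, which precedes the 12S gene, went from 4507, 5359.9 and 2882 at 6 h to 2054, 1494 and 1519.8 at 24 h (-1.33 ± 0.22), and MT-TV, between both rRNAs, from 19.2, 23.1 and 9.75 CPM at 6 h to 6.78, 4.36 and 5.64 at 24 h (-1.62 ± 0.35). MT-TC came down from 33.1, 47.8 and 42.6 CPM at 6 h to 7.40, 10.9 and 8.94 at 24 h (-2.18 ± 0.27), with 5.64, 6.68 and 4.64 in DMSO. All its 24 h libraries were above DMSO, a difference that was not called (0.69 ± 0.31, adjusted p = 0.1), and it was called higher at 24 h in HK2 (adjusted p = 0.03) and PGP knockout cells (adjusted p = 0.0025). MT-TM held its early rise (-0.08 ± 0.28), and MT-TP kept falling (-0.46 ± 0.14 and -0.65 ± 0.15). With the strand setting of the counting not given, neighbours on opposite strands cannot be told apart. With a 3′ kit, counts of mitochondrial tRNA and rRNA genes may not give the levels of the mature RNAs, and which forms were read was not tested. Mitochondrial mRNAs made up 3.05, 4.59 and 4.28% of counts at 6 h and 1.78, 2.67 and 2.64% at 24 h, mitochondrial tRNAs 0.672, 0.877 and 0.456% and 0.269, 0.212 and 0.225%. The share of MALAT1, a long RNA that stays in the nucleus, was 0.36, 0.236 and 0.436% and 0.617, 0.565 and 0.757%, and its part in these results was not tested. MALAT1 itself was called higher (0.86 ± 0.23), but not without the third 24 h or the second 6 h replicate (adjusted p = 0.069 and 0.061).

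Nuclear genes of the respiratory chain are read against the 8.08% of all genes tested that were lower and the 8.48% that were higher. Of 35 tested complex I genes, 6 were lower and 0 higher at 24 h than at 6 h (median -0.17), and of 38 genes of complexes II to V, 11 were lower and 0 higher (median -0.20). These counts were 3 and 6 without the second 6 h replicate, 3 and 5 without the third 24 h replicate, and 10 for complex I without the third 6 h replicate. CYC1, cytochrome c1, fell by 0.46 on the log2 scale, and UQCRQ, another complex III subunit, by 0.51. Of 71 mitochondrial ribosomal proteins 7 were lower and 5 higher, beside 16.6% called in either direction over all genes; 1 was higher without the second 6 h replicate, 2 without the second and 3 without the third 24 h replicate, and without the third 6 h replicate 13 were lower and 9 higher.

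Of 27 tested transcripts of the endoplasmic reticulum unfolded protein response, 10 were lower and 2 higher at 6 h than in DMSO, and 14 rose and 0 fell between 6 h and 24 h (median 0.53; 11 rose without the second 6 h replicate). At 24 h against DMSO 8 were higher and 0 lower (median 0.29). The list held 9 genes that fell and returned. MANF (ENSG00000145050), a secreted factor induced by protein misfolding, read 148, 188 and 211 CPM in DMSO, 66.6, 28.6 and 82.3 at 6 h and 211, 196 and 209 at 24 h (-1.62 ± 0.23, then 1.79 ± 0.23). The second 6 h replicate was the lowest, the 24 h libraries lay within or at the top of the DMSO range, and without that replicate the second step was 1.46. HSP90B1, the chaperone GRP94, read 949.9, 972 and 964 in DMSO, 736, 435 and 648 at 6 h and 1279, 1142 and 1168 at 24 h (0.98 ± 0.18), with 24 h against DMSO not called (adjusted p = 0.19). CRELD2, a partner of MANF in secretion stress, overshot: 63.9, 58.9 and 66.3 CPM in DMSO, 36.3, 36.01 and 31.3 at 6 h and 95.5, 98.4 and 80.5 at 24 h (-0.87 ± 0.15, then 1.41 ± 0.15), with the 24 h libraries above all DMSO libraries. SELENOS, of the retrotranslocation machinery, rose late (0.75 ± 0.14).

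Cytosolic chaperones took another course. Of 32 tested heat shock and chaperonin genes, 22 were lower at 6 h than in DMSO and 0 higher, and 15 fell and held. Between 6 h and 24 h 3 rose and 4 fell, beside 8.48% of all genes tested that rose and 8.08% that fell. The returning 3 were DNAJA1, HSPA1B and HSPA8, and none of them reached the DMSO level. HSPA8 (ENSG00000109971), the constitutive HSP70, read 770.1, 666 and 1029 CPM in DMSO, 177, 38.8 and 173 at 6 h and 247, 317 and 318 at 24 h (-2.66 ± 0.35, then 1.18 ± 0.34). Its second 6 h replicate lay far below the other 2, the second step without it was 0.75 (adjusted p = 0.031), and it was not called in the wild type libraries alone (adjusted p = 0.077) or without the second or the third 24 h replicate (adjusted p = 0.056 and 0.061). DNAJA1, an HSP40 partner, read 331, 300.3 and 318 CPM in DMSO, 89.4, 55 and 95.99 at 6 h and 129.6, 134 and 125 at 24 h (0.69 ± 0.15). HSPA1B, an inducible HSP70 with a near-identical copy in HSPA1A, so that reads could be split, read 22.97, 20.9 and 26.4 CPM in DMSO, 3.20, 3.06 and 5.25 at 6 h and 7.81, 9.52 and 10.7 at 24 h (1.26 ± 0.26). HSP90AB1 (-0.53 ± 0.11) and the chaperonin subunit CCT7 (-0.44 ± 0.09) were called lower only in the second step.

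Other genes that fell and fully returned included F3, tissue factor, at 12.3, 12.7 and 17.6 CPM in DMSO, 5.55, 2.18 and 5.25 at 6 h and 15.6, 10.7 and 16.9 at 24 h (1.72 ± 0.35). The ferrireductase STEAP3 read 11.1, 8.97 and 10.5 CPM in DMSO, 4.48, 2.62 and 3.19 at 6 h and 10.7, 8.53 and 8.16 at 24 h (1.40 ± 0.24). In both the 6 h libraries lay below every other library. CAMKK1, a kinase upstream of AMPK, read 4.06, 0.655 and 3.19 CPM at 6 h and had a second step of 1.36 ± 0.32. Without the second 6 h replicate it was 0.92. PNP, purine nucleoside phosphorylase, came back by 1.47 ± 0.50 (adjusted p = 0.047) with 10.7, 0.218 and 8.62 CPM at 6 h, and its call was lost with DESeq2, in the wild type libraries alone (adjusted p = 0.1 and 0.1) and without any 1 of 6 libraries, among them the second 6 h replicate (0.92, adjusted p = 0.12). Partial returns were seen for the aldehyde dehydrogenase ALDH1B1 (-1.31 ± 0.12, then 0.78 ± 0.12), the methionine adenosyltransferase MAT2A (-1.16 ± 0.14, then 0.78 ± 0.14) and the RNA-binding protein RBM12 (-1.16 ± 0.14, then 0.66 ± 0.14).

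The integrated stress response was early and lasting. Of 40 tested targets, 38 were higher at 6 h and 33 at 24 h than in DMSO. Between the times 9 fell and 2 rose, with a median of -0.30, beside 8.08% of all genes tested that fell and 8.48% that rose. By the class rules 25 held and 9 returned. TRIB3, a pseudokinase induced by ATF4, held at 12.9, 20.2 and 25.2 CPM in DMSO, 233, 315 and 313 at 6 h and 176, 245 and 227 at 24 h (-0.41 ± 0.20, adjusted p = 0.18; called lower with no filter on low counts, adjusted p = 0.026). ATF3, itself a transcription factor of the response, read 2.09, 6.47 and 5.47 CPM in DMSO, 18.1, 20.95 and 27.2 at 6 h and 21.4, 14.5 and 16.3 at 24 h (-0.35 ± 0.26, adjusted p = 0.39). INHBE, a secreted activin subunit, was among the largest early rises that held (4.03 ± 0.35, then -0.69 ± 0.26, adjusted p = 0.076; called lower in the wild type libraries alone, adjusted p = 0.046, and with no filter on low counts, adjusted p = 0.037).

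DDIT3 (ENSG00000175197), the death-linked factor CHOP, was among those that came down: 6.06, 7.93 and 6.97 CPM in DMSO, 40.8, 57.8 and 64.3 at 6 h and 22.6, 22.6 and 23.7 at 24 h (2.96 ± 0.21, then -1.24 ± 0.18, adjusted p = 5.2e-05). The 24 h libraries lay below all 6 h libraries and above all DMSO libraries. SESN2, a leucine sensor that restrains mTORC1, went from 154, 205 and 168 CPM at 6 h to 94.5, 81.5 and 91.95 at 24 h (-0.97 ± 0.17), and the amino acid carrier SLC38A2 from 285, 260.4 and 297 CPM at 6 h to 136, 201 and 169 at 24 h (-0.74 ± 0.13), both partial returns. SLC7A1, an arginine carrier, also came down (777, 696 and 806 CPM at 6 h to 499, 494 and 524 at 24 h, -0.59 ± 0.11). At 24 h against DMSO 37 of the 40 targets were higher in HK2 and 35 in PGP knockout cells. Cytosolic tRNA synthetases, which ATF4 also drives, had 6 of 20 lower and 0 higher in the second step (median -0.19; 4 lower without the second 6 h replicate), such as CARS1 (1.75 ± 0.12, then -0.55 ± 0.12) and VARS1 (-0.92 ± 0.16).

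Further early risers returned fully. The long noncoding RNA LINC00467 read 12.5, 16.3 and 13.9 CPM in DMSO, 39.1, 40.6 and 44.6 at 6 h and 12.9, 16.1 and 14.6 at 24 h (-1.51 ± 0.15). CD36, a scavenger receptor for fatty acids, read 20.9, 16.1 and 16.6 CPM in DMSO, 52.5, 48.02 and 55.1 at 6 h and 25.7, 19.6 and 17.3 at 24 h (-1.31 ± 0.16), and IRAG2, a membrane protein of lymphoid cells, 29.7, 26.7 and 33.5 CPM in DMSO, 91.6, 70.7 and 91.9 at 6 h and 28.6, 32.9 and 32.9 at 24 h (-1.43 ± 0.16). The 6 h libraries of these 3 genes lay above all others, and their 24 h and DMSO libraries overlapped. The cytochrome P450 CYP1B1 came down in the second step (-1.68 ± 0.35), and the receptor TREML2 came down in part (3.10 ± 0.37, then -1.20 ± 0.31). Early rises that held without a called second step were those of DUSP5, a phosphatase of ERK (3.25 ± 0.50, then 0.05 ± 0.37), and NLRP12, an inflammasome-family sensor (4.38 ± 0.46, then -0.41 ± 0.30).

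Full reversals were few: 10 genes rose and then fell below DMSO. CDC25C (ENSG00000158402), the phosphatase that activates CDK1, read 16.1, 15.4 and 17.6 CPM in DMSO, 29.7, 30.1 and 18.6 at 6 h and 6.78, 5.16 and 5.64 at 24 h (0.67 ± 0.21, then -2.15 ± 0.24). All 24 h libraries were below and all 6 h libraries above DMSO. PIF1, a DNA helicase, read 26.5, 25.9 and 28.4 CPM in DMSO, 33.5, 44.7 and 36.7 at 6 h and 5.96, 5.95 and 6.22 at 24 h (0.51 ± 0.17, then -2.66 ± 0.20). SKA1, of the spindle and kinetochore complex, had steps of 0.86 and -1.45, the cohesin subunit RAD21 0.49 and -0.87, PRR11 0.49 and -1.81, the centrosomal CEP70 0.62 and -1.28, and ZC3H4, a restrictor of transcription, 0.66 and -1.21. YEATS4, a chromatin reader, had 0.40 and -0.86, and the complex I subunits NDUFV1 and MT-ND4L 0.38 and -0.88, and 0.40 and -0.85. This class held 5 genes without the second 6 h replicate, 24 without the third 6 h replicate, 5 without the first or the second DMSO replicate and 3 without the third DMSO replicate.

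Of the 14 genes that fell and ended above DMSO, PHLDA2 (ENSG00000181649), an imprinted growth regulator, had the largest second step, at 29.7, 28.6 and 22.7 CPM in DMSO, 10.7, 12.2 and 9.19 at 6 h and 54.03, 57.3 and 48.8 at 24 h (-1.33 ± 0.18, then 2.32 ± 0.17). The 3 groups did not overlap. PLAUR, the urokinase receptor, read 121, 101 and 119 CPM in DMSO, 94.1, 32.7 and 84.2 at 6 h and 185, 149.6 and 193 at 24 h (1.32 ± 0.24), with the second 6 h replicate the lowest. The sterol isomerase EBP (-0.67, then 1.04), the sterol-regulated TMEM97 (-0.49, then 1.30), FASN above and the phospholipid enzyme LPCAT1 (-0.45, then 0.85) belong to lipid metabolism. Glutathione reductase GSR (-0.42, then 1.17), the folding proteins CRELD2 above and FKBP2 (-0.50, then 0.85), OAF (-0.58, then 1.63), DYNLT2B (-0.83, then 1.59), ZNF814 (-0.52, then 1.10), SMIM10 (-0.48, then 0.96) and the tRNA splicing subunit TSEN34 (-0.34, then 0.72) completed the class. It held 9 genes without the second 24 h replicate, 6 without the first, 5 without the second and 6 without the third DMSO replicate.

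**Figure D4:**
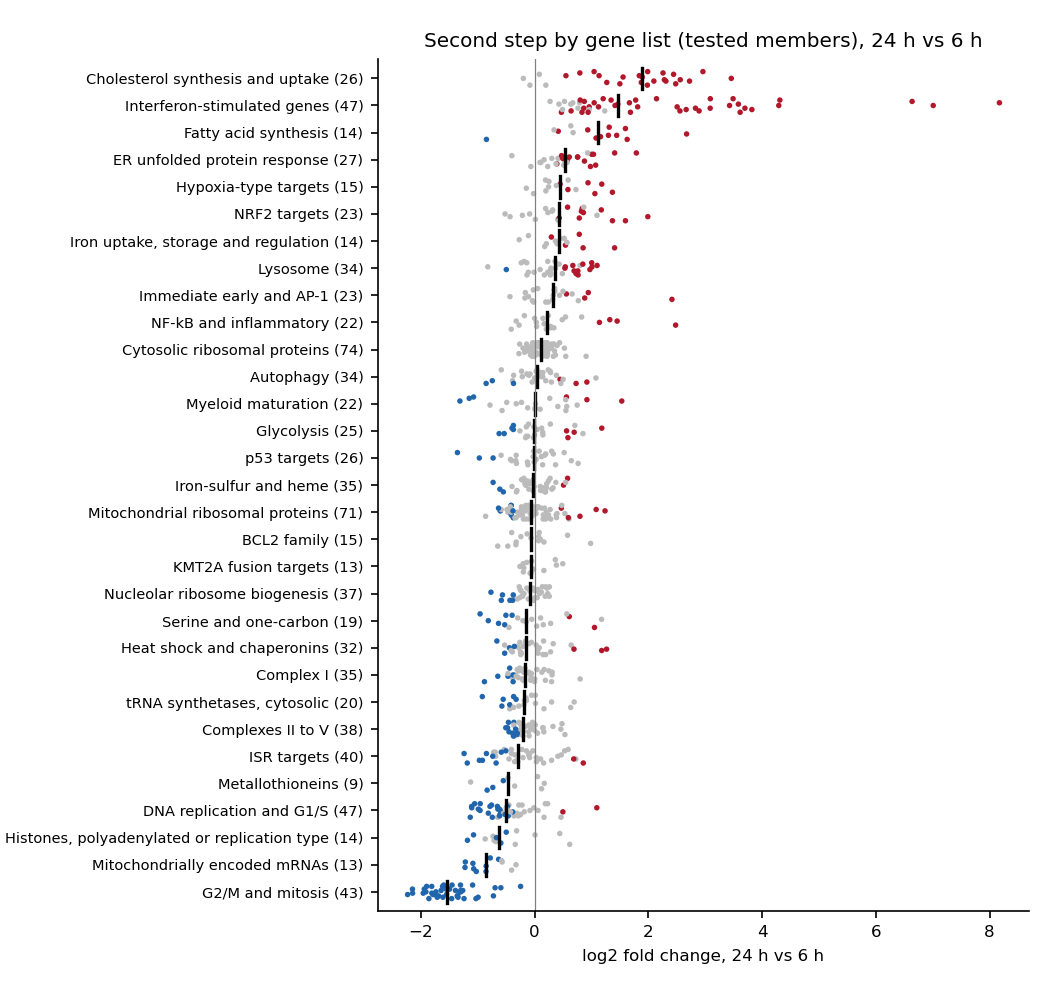
Log2 change from 6 h to 24 h for each tested member of 31 gene lists (points; red called higher, blue called lower, grey not called; bar at the list median; number tested in brackets). Cholesterol (median 1.88) and interferon genes (1.46) lie at the right and mitotic genes (-1.55) at the left, with ribosomal proteins close to 0.

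Some redox, iron and hypoxia-type genes rose in the second step, in which 8.48% of all genes tested rose and 8.08% fell. Of 23 tested NRF2 targets, 10 rose and 0 fell (median 0.43; 1 fell without the first 6 h replicate). NQO1, a quinone reductase, read 29.7, 27.8 and 39.5 CPM in DMSO, 27.3, 31.9 and 36.2 at 6 h and 117, 135 and 127 at 24 h (1.99 ± 0.17), and PGD, of the pentose phosphate pathway, went from 143, 188 and 167 CPM at 6 h to 311, 307 and 283 at 24 h (0.86 ± 0.11). The ferritin light chain FTL, also an iron gene, went from 4285, 5527 and 4823 CPM at 6 h to 8041, 8421 and 8742 at 24 h (0.78 ± 0.10). Of 14 tested genes of iron uptake, storage and regulation, 5 rose and 0 fell (3 without the second or the third 24 h replicate), among them ACO1, the iron-responsive aconitase IRP1 (0.85 ± 0.16), and STEAP3 above. TFRC, the transferrin receptor, read 525, 340.3 and 526 CPM at 6 h and 462, 615 and 528 at 24 h and was not called (0.20 ± 0.16, adjusted p = 0.41). Genes of iron-sulfur and heme assembly had 2 higher and 3 lower of 35 (median -0.03), where 16.6% of all genes tested were called in either direction, with BLVRB among the higher (0.58 ± 0.14); 1 was higher without the first 24 h, the second 24 h or the first 6 h replicate, and 1 lower without the first 24 h or the second 6 h replicate. Of 15 hypoxia-type targets 6 rose (3 without the second 6 h or the second 24 h replicate, 2 without the third 24 h replicate), among them NDRG1, a stress-induced gene, at 33.9, 40.8 and 26.6 CPM at 6 h and 92.03, 91.8 and 76.98 at 24 h (1.37 ± 0.17).

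Inflammatory genes changed in part. The counts are read against the 8.48% of all genes tested that rose and the 8.08% that fell. Of 22 tested NF-kB and inflammatory genes, 4 rose and 0 fell in the second step, where 8 had risen by 6 h (2 fell without the first 6 h replicate). Of 23 immediate early and AP-1 genes 4 rose and 0 fell, with 2 rising without the first and 1 without the third 24 h replicate. The chemokine CCL2 read 5.22, 2.92 and 9.79 CPM in DMSO, 8.11, 2.40 and 11.6 at 6 h and 54.4, 33.1 and 37.9 at 24 h (2.48 ± 0.45), and TNFAIP2 93.5, 46.3 and 109 CPM at 6 h and 172, 194 and 185 at 24 h (1.14 ± 0.20). For both, the second 6 h replicate was the lowest library, and both were called without it. Of 22 myeloid maturation genes 3 rose and 3 fell, with the receptor TLR2 higher (0.92 ± 0.19) and CD36 lower; only 1 rose without the first 6 h, the second 6 h or the third 24 h replicate.

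The next groups are read against the 8.08% of all genes tested that were lower and the 8.48% that were higher. Of 15 BCL2 family genes 0 were called by edgeR, with 3 lower at an unadjusted p under 0.05 and 1 lower with DESeq2. On leaving out any 6 h library, the second 24 h, the first DMSO or the third DMSO replicate, 1 was called lower. BAX read 21.1, 27.5 and 18 CPM at 6 h and 19.1, 14.9 and 19.1 at 24 h (-0.33 ± 0.19), BAK1 13.2, 15.3 and 11.6 CPM at 6 h and 9.86, 11.1 and 12.8 at 24 h (-0.24 ± 0.22), BCL2 132, 141 and 111 CPM at 6 h and 133, 111 and 122 at 24 h (-0.07 ± 0.12) and MCL1 145, 85.6 and 152 CPM at 6 h and 128, 149.8 and 151 at 24 h (0.16 ± 0.16). In all 4 the ranges at the 2 times overlapped. Of 26 p53 targets 3 fell and 0 rose (1 and 2 rose without the second and the third 6 h replicate), with DDB2, a DNA damage sensor, at 51.9, 48.7 and 40.1 CPM at 6 h and 15.4, 21.6 and 17.7 at 24 h (-1.36 ± 0.22). Of 74 cytosolic ribosomal protein genes 0 were called by edgeR (12 higher and 1 lower at an unadjusted p under 0.05, 0 with DESeq2; median 0.11); without the first 6 h replicate 2 were higher and 1 lower, and without the third 6 h replicate 6 were higher and 1 lower. Of 37 nucleolar ribosome biogenesis genes 6 fell and 0 rose, such as the methyltransferase FBL (-0.77 ± 0.15), after 23 had fallen by 6 h. Their share of fallers was above that of all genes tested, and 4 fell without the second 6 h replicate.

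Carbon metabolism was mixed as well, again beside 8.48% of all genes tested that rose and 8.08% that fell. Of 19 serine and one-carbon genes 2 rose and 6 fell, among the latter MTHFD1 (-0.53 ± 0.10); 1 rose without the first 6 h, the second 24 h or the third 24 h replicate and 4 without the third 6 h replicate. Of 25 glycolysis genes 4 rose and 5 fell, with TPI1 lower (-0.63 ± 0.11) and SLC16A3, a lactate carrier, higher (0.69 ± 0.15). The fallers were 2, 3 and 1 without the first, the second and the third 24 h replicate and 3 without the second 6 h replicate, and 2 rose without the third 24 h replicate. PGP, the gene knocked out in the other cells, fell by 6 h and returned in wild type (-0.76 ± 0.12, then 0.56 ± 0.13). Of 9 metallothioneins 3 fell and 0 rose, including MT1E (-0.84 ± 0.16) and MT1X (-0.74 ± 0.16), members of a family of near-identical copies. Of 14 histone genes 5 fell, among them H2AZ1 (-0.67 ± 0.11) and H4C3 (-1.18 ± 0.25), and 3 fell without the third 24 h or the third 6 h replicate. Which forms of histone RNA the 3′ kit read was not tested.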

How the data were processed

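RNA of MV4-11 cells was extracted with a Qiagen RNeasy kit and made into libraries with a Lexogen QuantSeq 3′ kit, per the labels' protocols. The authors deposited raw read counts per gene, made with bcl2fastq 2.20.0.422, HISAT2 and HTSeq on hg19, per the submitters' processing notes; aligner versions and the strand setting are not given in the sources used here. Of 54042 gene IDs, 51854 were named, 39559 from a name table and the rest from GENCODE 29, and the other 2188 held 8 counts in all. Groups were taken from the sample labels.

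From the counts, edgeR 4.0.16 (limma 3.58.1, R 4.3.3) fitted all 21 libraries of 7 groups in a single quasi-likelihood model with TMM scaling and filterByExpr (minimum count 10, minimum total 15), which kept 11610 genes. Fitting all groups together shares the estimate of spread. Benjamini-Hochberg adjusted p-values run over all genes tested, at 0.05. SEs are the log2 change divided by the square root of F. FTH1 did not pass the filter. Classes combine the calls of 6 h against DMSO, 24 h against 6 h and 24 h against DMSO. The members, gene lists and rules were chosen with earlier results of these data known.

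Named genes were the 10 largest rises and falls at a mean of at least 5 CPM with no overlap, up to 6 genes per class (5 per late or held class and direction) by the smaller step or the change, up to 4 called members per list, and DDIT3, ATF3, TRIB3, TFRC, BAX, BAK1, BCL2 and MCL1. All 24 reversed genes and some further mitochondrial genes were named beyond this after their values were seen. List levels by library use log2 of CPM plus 0.5. Count ratios have 95% exact counting intervals, which cover counting error only, as do limits from 3 counts.

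Alternatives were DESeq2 1.42.0, its size factors in edgeR, no filter on low counts, the replicate number as a block, the wild type libraries alone, each wild type library left out, and stricter class rules. On simulated counts of 11493 genes for this comparison, the test called 8, 29, 40 and 49 of 50 genes changed 1.5-, 2-, 3- and 4-fold, with 7 false calls. Summaries and figures used Python 3.11.15, pandas 2.3.3, numpy 2.4.6, scipy 1.17.1 and matplotlib 3.10.9.

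Some genes are not reported here.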

Additional observations from a re-analysis of the deposited data

How the results depend on the processing

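The counts of genes higher and lower at 24 h than at 6 h (984 and 938) were 974 and 996 with DESeq2, 971 and 970 with its size factors, 1099 and 931 with no filter on low counts, and 638 and 625 in the wild type libraries alone. On leaving out each library in turn the higher count ran from 623 to 1081. Of the 189 named genes 167 were called; 24 of these lost the call under at least 1 alternative, 7 other genes gained one, and 0 changed direction.

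Class sizes moved more. With no filter, 22 genes fell and reversed. In the wild type libraries alone, 42 kept rising, 33 kept falling, 100 rose and fully returned, 6 rose and reversed, 112 fell and fully returned, 9 fell and partly returned and 7 fell and reversed. With each step at an adjusted p under 0.01, 28 kept rising, 17 kept falling, 270 rose late, 302 fell late, 368 rose and held and 384 fell and held, 52, 20 and 3 rose and returned fully, partly or in reverse, and 76, 6 and 3 fell and did so. With each step at least 1.5-fold, 43 kept rising, 13 kept falling, 301 fell late, 317 fell and held, 91, 21 and 3 rose and returned fully, partly or in reverse, and 123, 4 and 3 fell and did so. Fewer calls follow from the stricter rules by construction; for the other changes the cause was not tested. Leaving out each library gave 46 to 58 genes that kept rising, 44 to 81 that kept falling, 103 to 232, 23 to 43 and 3 to 24 that rose and returned fully, partly or in reverse, and 128 to 278, 7 to 38 and 5 to 16 that fell and did so.

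The labels number replicates alike in each group. Deviations of same-numbered libraries at 6 h and 24 h correlated at 0.0154, 0.00193 and 0.184, not all above 0.1. Not every library correlated best with its own number. Deviations within groups of 3 libraries offset one another, so these correlations cannot decide whether same-numbered libraries were handled together, which is not labelled. With the replicate block 1323 genes were higher and 1191 lower, 109 kept rising, 111 kept falling, 68 rose and partly returned, 20 rose and reversed, 317 fell and fully returned, 47 fell and partly returned and 26 fell and reversed.

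The share of mitotic genes with a CHR was 54.05% in the 250 bases before the start. At this depth and n, 8, 29 and 40 of 50 genes changed 1.5-, 2- and 3-fold were called in simulated counts. Those counts held fewer changed genes than the 1922 called in the data and no library that stood apart. The shares found in the data may therefore differ. A gene not called may still have changed.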
